A study of Mus musculus with 6 samples.

Results

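The genes described here are 9 transcription factors of the periocular mesenchyme and the cranial neural crest: Lmx1b, Prrx1, Prrx2, Tfap2b, Twist1, Twist2, Msx1, Meis2 and Sox9. They were taken by gene symbol from a table of 17606 genes, and all 9 were present and had enough counts to be tested. RNA was sequenced from sorted corneal keratocytes, the mesenchymal cells of the corneal stroma, in 3 control and 3 Ptch1-ablated libraries. The ablated mice carried Prrx1-CreERT, a Cre recombinase knocked into the Prrx1 locus that tamoxifen switches on, together with floxed Ptch1, the gene of the Hedgehog receptor that holds the pathway off. Both groups were 10 weeks old and had received 3 doses of tamoxifen, and cells were taken 1 month after treatment. The controls were age-matched and are marked WT in the sample titles, with no further word in the sources used here on whether they carried the Cre allele or floxed Ptch1. The Cre is active in other mesenchymal cells of the eye as well, the corneal endothelium included.

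During eye development, neural crest cells migrate between the optic cup and the surface ectoderm, form the periocular mesenchyme and give rise to the corneal stroma, the corneal endothelium and the drainage tissue of the anterior chamber. The members mark that lineage. Lmx1b, Prrx1, Prrx2, Msx1 and Meis2 are homeodomain proteins, Twist1 and Twist2 are basic helix-loop-helix proteins that pair with E proteins, Tfap2b is an AP-2 protein, and Sox9 binds DNA through an HMG box. Hedgehog signaling shapes the same mesenchyme in the embryo, and the comparison asked how these factors stood in adult keratocytes once the pathway was switched on.

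Library totals ran from 20258414 to 24788039 counts, and 13888 genes were tested. Ptch1, the targeted gene, was higher as a gene total in the ablated libraries (log2 fold change 4.47 ± 0.35, SE, edgeR adjusted p = 6.83e-06), which does not check the deletion, while Gli1 went from 1, 20 and 36 counts to 3022, 3042 and 3098 and Hhip from 12, 25 and 31 to 23979, 26893 and 26452. The keratocyte markers Kera, Lum, Aldh3a1, Aldh1a1, Tkt and Cd34 were abundant in every library, whereas Ptgds, also on that list, did not exceed 39 counts in any. In bulk RNA, fewer cells of a type and less RNA per cell cannot be told apart, which holds for every level below. Control replicate 1 stood apart from the other controls for 3 members: it had no count of Msx1 or Meis2 and nearly all control counts of Sox9. It also had the fewest genes with a count, 14331 against 15029 to 15645 in the other libraries.

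The members fell into an abundant and a scarce group. In TPM (counts divided by transcript length and scaled to a sum of 1000000 per library, which lets genes be compared), control keratocytes held Tfap2b at 277.8 ± 42.8, Twist2 at 168 ± 35.3, Prrx1 at 131 ± 8.24, Lmx1b at 63.4 ± 15.3 and Twist1 at 42.3 ± 3.42 TPM (SD, n = 3 each). Prrx2 followed at 6.36 ± 1.22 TPM, Msx1 at 1.94 ± 1.74, Sox9 at 0.61 ± 0.928 and Meis2 at 0.193 ± 0.169 TPM (SD, n = 3 each). Among neighbours in this order, the control libraries of Twist2 and Prrx1, of Msx1 and Sox9, and of Sox9 and Meis2 overlapped, and the other neighbours were apart in every library. The first 7 places were held by the same genes in the ablated libraries, where Meis2 (1.84 ± 0.631 TPM) and Sox9 (1.82 ± 0.22 TPM, SD, n = 3 each) stood level with each other. There, the libraries of Tfap2b and Twist2, of Lmx1b and Twist1, of Prrx2 and Msx1, and of Meis2 and Sox9 overlapped.

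**Figure D1:**
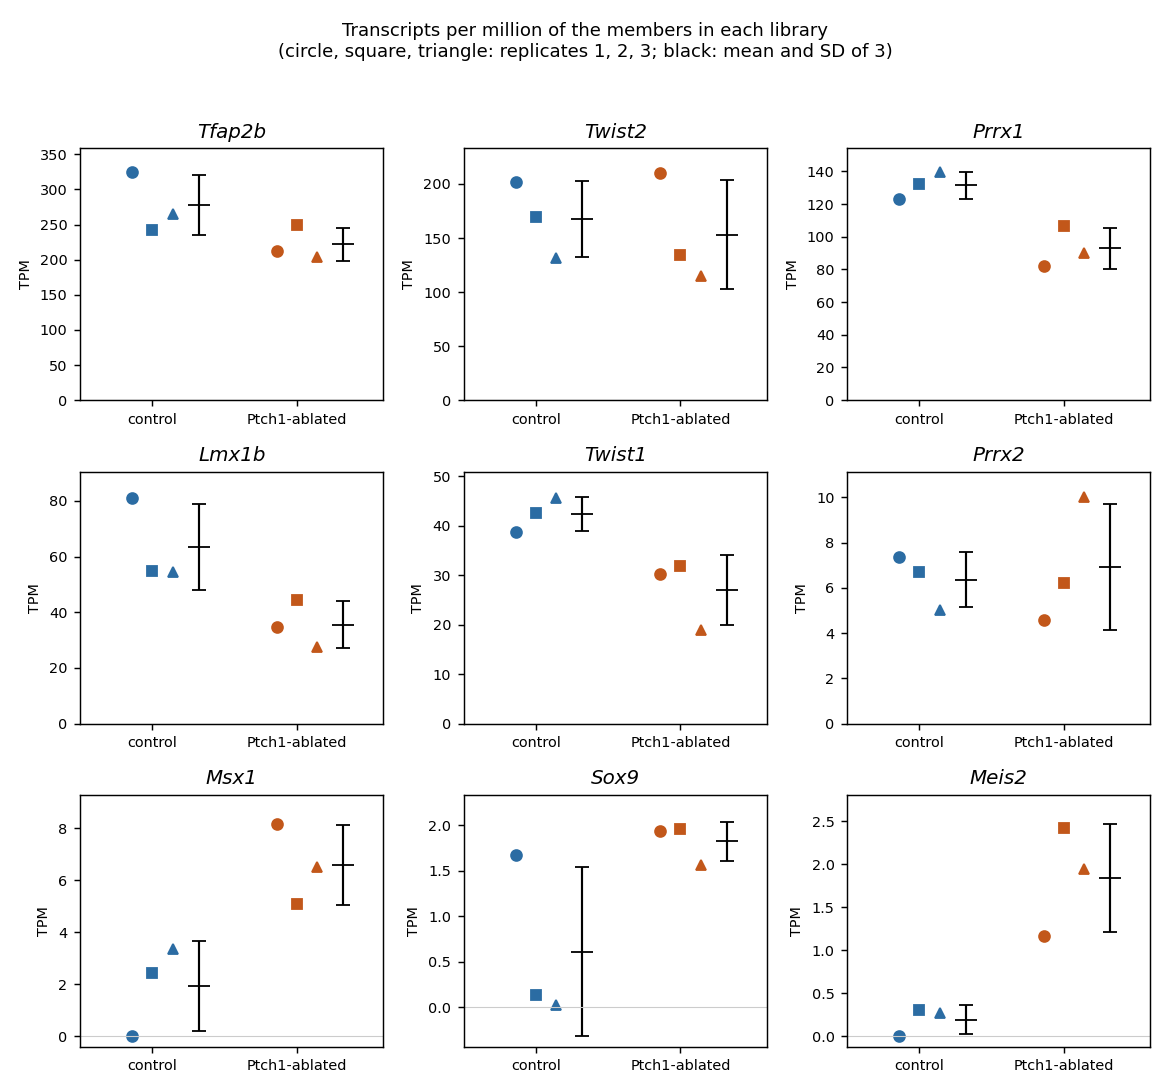
TPM of each member (vertical axis, linear, a scale of its own for each gene) in the 3 control (blue) and 3 Ptch1-ablated (orange) libraries, with the mean and SD of each group in black. Lmx1b, Prrx1 and Twist1 lie lower in every ablated library than in any control, Msx1 and Meis2 lie higher, and for Sox9 control replicate 1, at 1.68 TPM, lies among the ablated libraries.

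Of the 9 members, 3 (Lmx1b, Prrx1 and Tfap2b) were lower in Ptch1-ablated keratocytes by edgeR, with 0.05 as the largest adjusted p, and 0 were higher, while 6 did not pass. Over all genes tested, 8.48% passed, 4.68% as higher and 3.8% as lower. A fold change of at least 2 in addition was met by 1 member, Lmx1b, and by 5.49% of all genes. The median log2 fold change of the members was -0.35, against 0.0046 for all genes. The groups did not overlap in normalized counts (CPM, per 1000000 of the scaled library total) for 6 members, 4 lower and 2 higher, as was the case for 27.4% of all genes. The number of members past the threshold ran from 1 to 4 over 15 alternative settings, and Lmx1b was among them in every one.

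Lmx1b (Entrez 16917) is a LIM-homeodomain factor that the periocular mesenchyme requires to build the corneal stroma. Its counts, in order of replicate number, were 4665, 2728 and 3146 for the controls against 1841, 2214 and 1596 for the ablated libraries. Control replicate 1 was the highest, and every ablated library lay below every control. The mean fell from 165 ± 42.5 to 78.9 ± 14.9 CPM (SD, n = 3 each), or -1.06 ± 0.21 on the log2 scale (SE, edgeR adjusted p = 0.00696, 95% interval -1.52 to -0.61). With control replicate 1 left out the log2 fold change was -0.83, and with ablated replicate 2 left out it was -1.20, both past the threshold. Lmx1b is also on a gene list that the study drew up from these same libraries, so that list is no independent evidence of its direction.

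Prrx1 (Entrez 18933) is a paired-related homeodomain factor of limb, facial and ocular mesenchyme. The controls held 6113, 5700 and 6994 counts of it and the ablated libraries 3750, 4636 and 4594. The controls lay close together, and the groups did not overlap. Prrx1 fell from 295 ± 13.4 to 181 ± 18.9 CPM (SD, n = 3 each), or -0.71 ± 0.14 on the log2 scale (SE, edgeR adjusted p = 0.0061, 95% interval -1.01 to -0.41). The call held in each of the 6 fits that left out a library (-0.77 to -0.63). It was lost with limma on log2(TPM + 1) (-0.50, limma adjusted p = 0.0545) and log2(TPM + 0.1) (-0.51, limma adjusted p = 0.0603). In those limma fits the median of all genes moved to 0.19 and 0.22. Relative to it Prrx1 was at -0.69 and -0.73, against -0.72 in the reported fit. Because the Cre sits in the Prrx1 locus and the alleles of the controls are given only as WT, an effect of that allele on Prrx1 counts and an effect of Ptch1 ablation cannot be told apart.

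Tfap2b (Entrez 21419), a neural crest factor that the corneal endothelium and stroma need in development, was the most abundant member. It counted 10994, 7548 and 9692 in control libraries against 6690, 7821 and 7334 after ablation. Scaled to library totals the groups were apart, but narrowly, and in TPM they overlapped, with control replicate 2 at 242.79 and ablated replicate 2 at 249.08. The mean fell from 442 ± 55.9 to 304 ± 24.8 CPM (SD, n = 3 each), or -0.54 ± 0.14 on the log2 scale (SE, edgeR adjusted p = 0.0298, 95% interval -0.84 to -0.24). The call was lost without control replicate 1 (-0.43), 2 (-0.61) or 3 (-0.57) and without ablated replicate 1 (-0.49) or 3 (-0.52), and in both limma fits (-0.32 each). Scaled by library totals only, where the median of all genes moved to 0.17, it was -0.37 and did not pass. Relative to the median of all genes, Tfap2b was at -0.51 and -0.54 in the limma fits and -0.54 by library totals. The reported fit gave -0.54 on that measure. Within each library, TPM of Tfap2b exceeded that of Lmx1b by 4.01, 4.44 and 4.87 times in the controls and by 6.13, 5.62 and 7.43 times in the ablated libraries. The ratio was thus higher in every ablated library (exact permutation test, two-sided p = 0.1, the smallest that 3 against 3 can give).

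To show how the 3 members that fell differ at their starts, the 250 bases before the start of transcription are printed for each, 5′ to 3′ on the strand of the gene, from RefSeq (build GRCm38.p6). Capitals mark CG dinucleotides, the pair of letters that DNA methylation acts on. Lmx1b is at chr2:33641099-33641348 on the minus strand, Prrx1 at chr1:163313651-163313900 on the minus strand and Tfap2b at chr1:19211804-19212053 on the plus strand.
Lmx1b: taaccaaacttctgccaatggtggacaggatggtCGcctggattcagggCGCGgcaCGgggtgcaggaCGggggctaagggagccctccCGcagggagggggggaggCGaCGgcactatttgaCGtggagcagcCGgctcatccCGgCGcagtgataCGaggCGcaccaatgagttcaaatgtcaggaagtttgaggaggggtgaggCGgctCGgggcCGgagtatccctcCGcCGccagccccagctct
Prrx1: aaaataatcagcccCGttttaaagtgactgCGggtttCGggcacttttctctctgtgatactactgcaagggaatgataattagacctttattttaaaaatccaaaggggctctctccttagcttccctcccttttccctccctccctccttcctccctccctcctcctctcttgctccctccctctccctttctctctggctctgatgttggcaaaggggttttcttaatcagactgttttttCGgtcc
Tfap2b: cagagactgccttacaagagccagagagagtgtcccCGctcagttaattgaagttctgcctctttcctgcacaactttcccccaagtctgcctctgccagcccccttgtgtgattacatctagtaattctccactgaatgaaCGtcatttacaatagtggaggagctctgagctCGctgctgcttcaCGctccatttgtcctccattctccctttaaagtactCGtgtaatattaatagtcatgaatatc
The Lmx1b stretch held 19 CG pairs and 65.2% G and C, whereas Prrx1 held 4 pairs (47.6%) and Tfap2b 5 (46.4%). Over 32851 such stretches in the table the median was 6 pairs, and 92.1% held at least 1. Among the 8 members with an entry, Twist1 (18), Msx1 (20), Prrx2 (21) and Twist2 (23) were rich in the pair and Meis2 (7) was not. The members that fell thus included both kinds. The letters GACCACCCA, which Gli proteins bind, were searched on both strands and occurred in 0 of the 8 stretches and in 0.225% of all. The homeodomain letters TAATTA, the same on both strands, occurred in 1, that of Prrx1, and in 4.84% of all. Such a match is a description of the letters only, and no match says only that they are not in this window. Sox9 had no entry.

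Twist1 and Twist2 are close relatives that hold mesenchymal cells in an undifferentiated state. Twist1 (Entrez 22160) counted 600, 574 and 712 in control libraries against 434, 428 and 296 after ablation. Every ablated library was below every control, at 16.2 ± 3.71 against 29.6 ± 1.88 CPM (SD, n = 3 each). The log2 fold change of -0.87 ± 0.26 (SE, 95% interval -1.44 to -0.30) had an edgeR adjusted p of 0.0617, which did not pass. It passed with DESeq2 (-0.86, DESeq2 adjusted p = 0.0237) and with upper quartile scaling (-0.92, edgeR adjusted p = 0.0478), and its adjusted p ran from 0.0237 to 0.191 over the alternatives. Twist2 (Entrez 13345), the second most abundant member, counted 2466, 1799 and 1621 in control libraries against 2392, 1424 and 1415 after ablation. The groups overlapped, since replicate 1 was the highest of each. Its log2 fold change was -0.35 ± 0.25 (SE, edgeR adjusted p = 0.494, 95% interval -0.89 to 0.20). It was -0.18 without control replicate 1 and -0.66 without ablated replicate 1, neither past the threshold. TPM of Twist2 exceeded that of Twist1 by 2.89 to 5.21 times in the controls and by 4.22 to 6.98 times in the ablated libraries, ranges that overlap (exact permutation test, two-sided p = 0.2).

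Prrx2 (Entrez 20204), the relative of Prrx1, was scarce, with control counts of 73, 58 and 50 against 43, 55 and 104 after ablation. Ablated replicates 1 and 3 were the lowest and the highest of the 6. The log2 fold change was -0.04 ± 0.71 (SE, edgeR adjusted p = 0.987), and its 95% interval, -1.59 to 1.51, holds changes in either direction of the size seen for Lmx1b. The sign changed with the setting, as it did without control replicate 1 (0.089), control replicate 2 (0.0094), ablated replicate 1 (0.19) or ablated replicate 2 (0.081). Prrx1 exceeded Prrx2 in TPM by 16.7 to 27.9 times in the controls and by 9.01 to 18.0 times in the ablated libraries, which overlap (exact permutation test, two-sided p = 0.3).

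Msx1, Meis2 and Sox9 had higher means in the ablated libraries, but none passed. Msx1 (Entrez 17701), a homeodomain factor that responds to BMP signals in facial mesenchyme, counted 0, 40 and 64 in control libraries against 143, 83 and 124 after ablation. No ablated library was as low as any control, at 4.87 ± 1.29 against 1.64 ± 1.46 CPM (SD, n = 3 each), or 1.57 ± 1.11 on the log2 scale (SE, edgeR adjusted p = 0.484, 95% interval -0.85 to 3.99). Without control replicate 1, the one at 0, the value was 0.99, and without control replicate 3 it was 2.21. Meis2 (Entrez 17536), a TALE homeodomain factor needed by cranial neural crest, counted 0, 8 and 7 in control libraries against 31, 75 and 61 after ablation. All ablated libraries exceeded all controls, at 2.32 ± 0.94 against 0.242 ± 0.218 CPM (SD, n = 3 each), or 3.24 ± 1.29 on the log2 scale (SE, edgeR adjusted p = 0.171, 95% interval 0.42 to 6.05). Of the alternatives, only limma on log2(TPM + 1) passed (1.24, limma adjusted p = 0.0354). At these depths 3 counts, the limit that a count of 0 allows, are 0.121 to 0.158 CPM, for counting error only.

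Sox9 (Entrez 20682), the factor that directs cartilage formation and acts early in the neural crest, counted 73, 5 and 1 in control libraries against 78, 74 and 69 after ablation. Control replicate 1 was as high as the ablated libraries, and the other controls were far below. Over all libraries the log2 fold change was 1.33 ± 1.19 (SE, edgeR adjusted p = 0.603, 95% interval -1.28 to 3.94). Without control replicate 1 it was 4.31 ± 1.17 (SE, edgeR adjusted p = 0.0483), and without control replicate 3 it was 0.77. The same library held 122 counts of Eya1 against 0 and 1 in the other controls, and 76 of Comp against 11 and 6, but 1 count of Pax3 against 48 and 62. These 3 genes were chosen after their values were seen, and the part of what they mark in the Sox9 counts of that library was not tested.

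**Figure D2:**
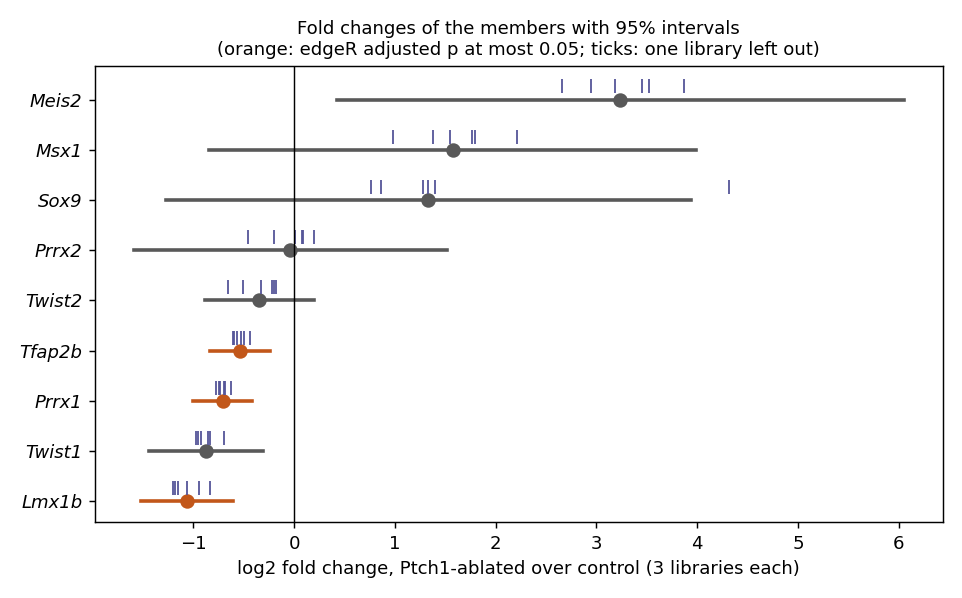
Log2 fold change of each member (horizontal axis, Ptch1-ablated over control, 3 libraries per group) with its 95% interval from the edgeR fit, orange where the adjusted p was at most 0.05, and ticks for the 6 fits that left out a library. Lmx1b, Prrx1 and Tfap2b lie below 0 with narrow intervals, and the tick of Sox9 at 4.31 is the fit without control replicate 1.

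The wider set of transcription factors of the same lineage was then compared. Of 35 listed factors 31 were in the table and 21 were tested, and 3 were higher (Foxc2, Snai1 and Ets1) and 1 was lower (Rarb). Their median log2 fold change was 0.33. For these factors and the lists below, the shares to set beside the counts are those over all genes tested, 4.68% higher and 3.8% lower. The median log2 fold change of all genes was 0.0046. Snai1, a repressor that drives the loss of epithelial character, counted 2729, 1602 and 2346 in control libraries against 4598, 5043 and 4138 after ablation (log2 fold change 0.89 ± 0.18, SE, edgeR adjusted p = 0.00809). Without control replicate 2 its value was 0.75 and the adjusted p 0.0501. Ets1, a neural crest and endothelial factor, rose from 1222, 918 and 1108 to 1890, 2447 and 2634 counts (0.93 ± 0.18, SE, edgeR adjusted p = 0.0065). Rarb, a retinoic acid receptor, fell from 234, 458 and 478 to 125, 80 and 67 counts (-2.29 ± 0.42, SE, edgeR adjusted p = 0.00495). Ets1 and Rarb passed in all 15 alternatives.

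The forkhead factor Foxc2, needed in the periocular mesenchyme for the anterior segment, had 0 counts in every control library and 33, 55 and 20 in the ablated ones. The mean of the ablated libraries, 1.52 ± 0.772 CPM (SD, n = 3), was 9.61 times the highest control limit, 0.158 CPM for 3 counts. That ratio leaves out the spread of the ablated libraries, the lowest of which held 0.805 CPM. Foxc2 passed (edgeR adjusted p = 0.0221), a call that held in only 1 of the 6 fits with a library left out, the one without control replicate 1. Foxc1, which causes anterior segment disorders when mutated and is named here after its values were seen, did not pass. It had 178, 135 and 133 counts and then 313, 675 and 303 (1.36 ± 0.39 on the log2 scale, SE, edgeR adjusted p = 0.0541). It passed with DESeq2, by library totals only, without the filter on low counts and with a mean count of at least 50, and its adjusted p ran from 0.015 to 0.256 over the alternatives. Without ablated replicate 2, the highest library, the value was 0.87.

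Partners of the members were compared next. Of 19 listed genes 18 were in the table and 16 were tested, and 3 were higher, Id3 and Id1 among them, and 0 lower. The median of their log2 fold changes was 0.23. The E proteins Tcf3, Tcf4 and Tcf12, with which Twist proteins bind DNA, did not pass. Their 95% intervals ran from -0.08 to 1.16 for Tcf3, from -0.11 to 0.41 for Tcf4, the most abundant, and from -0.57 to 0.26 for Tcf12. The Id proteins take E proteins out of such pairs. Id3 went from 4384, 3080 and 4034 counts to 7801, 9242 and 12558, with no overlap (1.19 ± 0.17 on the log2 scale, SE, edgeR adjusted p = 0.000751), and passed in all 15 alternatives. Id1 went from 979, 566 and 1053 to 1581, 1605 and 2265 counts (0.91 ± 0.22, SE, edgeR adjusted p = 0.0244) and lost its call without control replicate 2 (0.73) or ablated replicate 3 (0.75). The LIM partners Ldb1 and Ldb2 and the Sox9 partners Sox5 and Sox6 did not pass. On the log2 scale Ldb1 was at 0.30 (95% interval -0.19 to 0.80) and Ldb2 at 1.13 (0.34 to 1.92, edgeR adjusted p = 0.0844). Sox5 was at -0.78 (95% interval -1.64 to 0.08) and Sox6 at -0.59 (-2.36 to 1.17). Without ablated replicate 3, 1 partner passed, and without control replicate 2, 2 of the related factors passed.

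**Figure D3:**
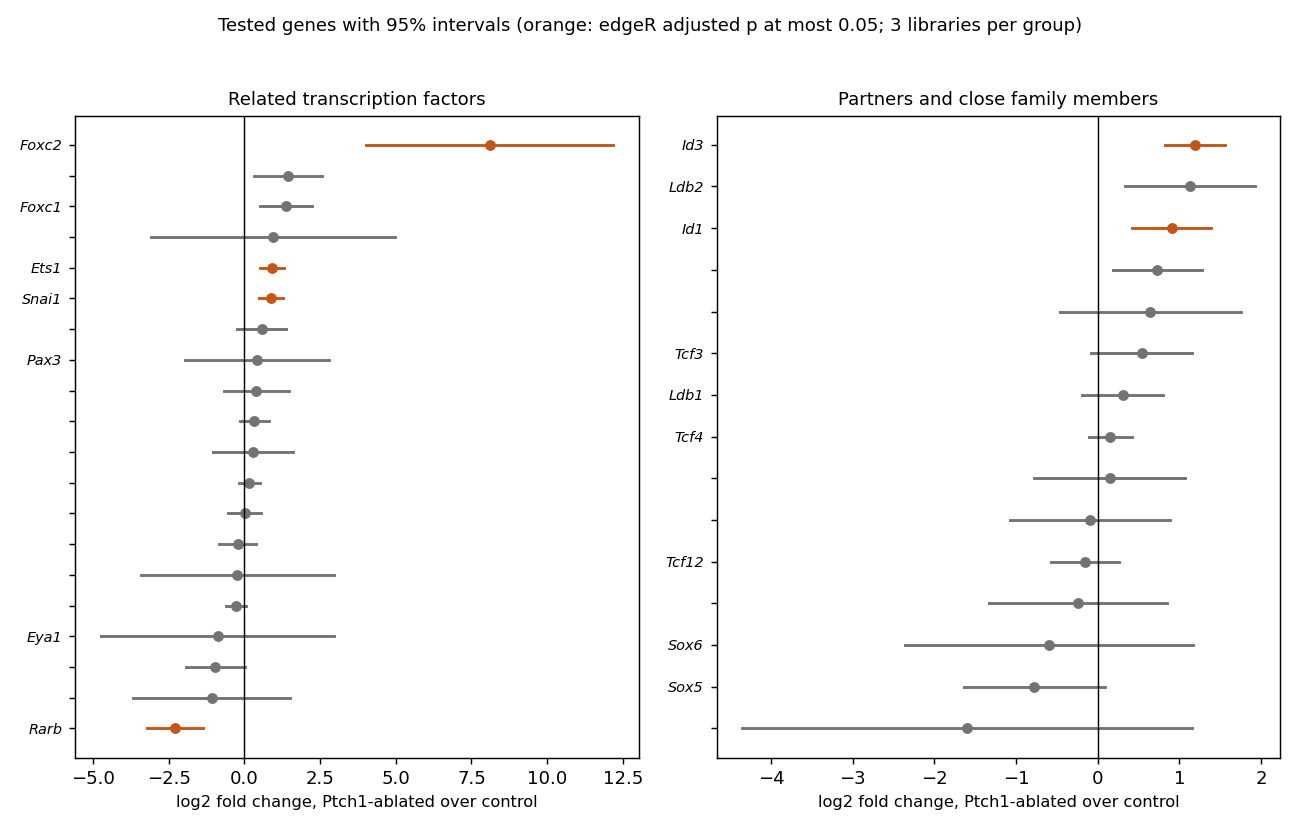
Log2 fold change (horizontal axis, Ptch1-ablated over control, 3 libraries per group) with its 95% interval for 20 related factors (left) and 15 partners (right) that were tested, with names for those in the text, orange where the edgeR adjusted p was at most 0.05. Id3 and Id1 lie above 0 and Rarb below it, and the point of Foxc2 is a fitted value against controls at 0, so its position depends on the fit.

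Genes listed as downstream of the members, some of them only linked to a member or related to such a gene, did not move as 1 group. Kera and Lum are also on the keratocyte marker list, and Cdh1 is also on the list of corneal epithelial markers. All 10 were tested, 1 was higher and 2 were lower. The median of their log2 fold changes was 0.65. Kera, the keratan sulfate proteoglycan that embryos without Lmx1b fail to express in the cornea, counted 277023, 251885 and 328811 in control libraries against 88567, 97184 and 136921 after ablation (-1.59 ± 0.13, SE, edgeR adjusted p = 1.08e-05). The related proteoglycans Lum (-0.07 ± 0.12, SE, edgeR adjusted p = 0.812) and Dcn (-0.32 ± 0.13, SE, edgeR adjusted p = 0.177) did not pass, and Dcn did without ablated replicate 3 (-0.48). Tnc, a matrix glycoprotein gene that Prrx1 activates in fibroblasts, went from 13, 44 and 49 counts to 367, 553 and 473 (3.52 ± 0.50, SE, edgeR adjusted p = 0.000766). Its direction was thus opposite to that of Prrx1. Postn, a matrix gene downstream of Twist1, went from 2320, 2066 and 2712 to 1379, 1717 and 2047 counts (-0.64 ± 0.17, SE, edgeR adjusted p = 0.0399). Of the fits that left out a library, Postn passed only in the one without ablated replicate 3 (-0.76). The other 5 did not pass. Bmp4, which acts with Msx1 in facial mesenchyme, was at 1.19 ± 0.49 (log2, SE, edgeR adjusted p = 0.181). Fgfr2 (0.64 ± 0.27) and Runx2 (0.65 ± 0.19), both linked to Twist1 in the skull, had edgeR adjusted p of 0.191 and 0.0617. The cadherins Cdh1 (2.01 ± 1.68) and Cdh2 (0.77 ± 0.42) had edgeR adjusted p of 0.572 and 0.346.

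Of 11 cartilage matrix genes that Sox9 drives in chondrocytes, 6 were tested, 1 was higher and 0 lower. The median of their log2 fold changes was 1.31, with 5 positive and 1 negative. The negative one was Col11a1, the most abundant of the 6, which did not pass (-0.47 ± 0.22, SE, edgeR adjusted p = 0.254). It stood at 64.9 to 114 CPM in the controls and 56.6 to 63.9 in the ablated libraries. The sum of the list overlapped between groups, at 85.8 to 136 against 96.4 to 123 CPM. The gene past the threshold was Col9a1, which counted 435, 299 and 469 in control libraries against 990, 555 and 1191 after ablation (1.02 ± 0.29, SE, edgeR adjusted p = 0.0499). With a library left out it passed only without ablated replicate 2 (1.27). Col2a1, which defines cartilage, had 1 count in all 6 libraries together.

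Markers of other cells that a corneal sort can hold were summed per library. Mural cell markers stood at 404 to 407 CPM in the controls and 753 to 796 in the ablated libraries, with 3 of 6 higher (Rgs5, Notch3 and Acta2) and all 6 with positive log2 fold changes. Acta2 had the largest change of those 3 (1.40 ± 0.16 on the log2 scale, SE), and the study uses it as a fibroblast marker for the keratocytes themselves. Which cells its counts came from was not tested. Vascular endothelial markers stood at 645 to 823 and 875 to 922 CPM (3 of 5 higher, Pecam1, Cdh5 and Vwf). Kdr, the most abundant of that list, had the opposite sign and did not pass, at 464 to 639 CPM in the controls and 402 to 431 in the ablated libraries (-0.40 ± 0.14 on the log2 scale, SE, edgeR adjusted p = 0.112), so the sum joins opposite differences. Schwann cell markers stood at 165 to 176 and 203 to 220 CPM (1 of 6 higher). Corneal epithelial markers went the other way, from 39.6 to 69.0 CPM down to 2.63 to 9.29, with Krt5, Krt14 and Krt15 lower, although Krt12 had 0 counts in every control and 21, 49 and 52 in the ablated libraries. The sums overlapped between groups for corneal endothelial markers (827 to 947 against 626 to 950 CPM), melanocyte markers (18.1 to 23 against 14.6 to 19.1 CPM, 0 of 4 past the threshold, Dct at 0 in 5 libraries) and leukocyte markers (901 to 981 against 777 to 1021 CPM, 0 of 6 past it). The corneal endothelial sum was carried by Col8a2 and Slc4a4, which did not pass. Of its scarcer genes Col8a1 was higher (2.31 ± 0.25 on the log2 scale, SE, edgeR adjusted p = 9.8e-05), and Slc4a11, at 0.918 to 9.15 CPM in the controls and 14.7 to 26.2 in the ablated libraries, did not pass (2.12 ± 0.61, SE, edgeR adjusted p = 0.0541). The median log2 fold change of the 5 endothelial genes was 2.12. The keratocyte list was lower, at 49947 to 51577 against 27593 to 34163 CPM, with 5 of 6 tested genes past the threshold. The part of these cells in the values of the members was not tested.

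The genes whose pattern over the 6 libraries came nearest to a member's were sought by the root mean square difference of centred log2 CPM, among 12133 genes. Such nearness over 6 libraries describes the values only, and shared regulation was not tested. For Lmx1b these were Arf6, Smim1 and Tmem165, with differences of 0.0908, 0.117 and 0.129. Arf6 (mean 4.40 CPM) and Tmem165 (8.89 CPM) were scarce and did not pass (edgeR adjusted p = 0.265 and 0.143), while Smim1 (30.3 CPM) did (edgeR adjusted p = 0.0197). For Prrx1 they were Calcrl, Fam169a and LOC118567769, at 0.0564, 0.0642 and 0.0683, and for Tfap2b Gnpda1, Dph3 and Abhd14b, at 0.0655, 0.066 and 0.0679. For Twist1 they were Dnase2a, Ccdc134 and Cracr2b, the first at 0.0644, and for Twist2 Btbd11, Aar2 and Pink1, the first at 0.0754. The nearest genes of the scarce members were Rps3, Mrpl38 and Adal for Prrx2 and Otulinl, Net1 and Cnksr3 for Msx1, the first of each at 0.0854 and 0.167. Meis2 had Clca3a1 (0.204), Ripor2 and H2-T24, and Sox9 had Pik3r6 (0.252), Sh2d2a and Lrrn3.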

How the data were processed

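RNA was measured in sorted keratocytes of 6 mouse samples, 3 per group, which the study's methods call biological replicates. The titles in the labels gave each sample's group and number. The authors aligned reads with Bowtie2 (2.2.5) and quantified genes with RSEM (1.2.12), and the submitters' processing notes name the build mm9. The annotation release and strandedness are not given in the sources used here, so reads of a member and of an overlapping gene on the other strand (annotated for Lmx1b, Prrx1 and Twist2) cannot be told apart, and reads shared by the Twist or Prrx pairs are uncertain. The labels name an Illumina TruSeq kit, the study's methods ribosomal RNA depletion and a BGISEQ platform.

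The deposited table gives, for each gene and library, expected counts from RSEM without normalization, TPM values as the authors computed them, and deposited FPKM values and group averages, which entered no comparison. Expected counts were rounded to whole numbers (18.6% were not whole), genes were kept by filterByExpr, TMM set the library scaling, and edgeR's quasi-likelihood test was run between the groups (two-sided, no covariates, Benjamini-Hochberg over all 13888 genes). SE and 95% intervals follow from the F statistic. A gene was called at an adjusted p of at most 0.05. The study's methods ask in addition for a fold change of at least 2, and the count under both is given once beside the members. The fit was tested on simulated data, where it found 79 of 102 genes changed 4-fold and 32 of 98 changed 2-fold, and called 6 unchanged genes. Most 2-fold changes in the simulation were thus missed, so a gene that did not pass is not shown to be unchanged. The genes changed there were drawn at random from all abundances and were fewer than the 1178 that passed in the data. The shares found are thus no estimate for the members. Alternatives were DESeq2, RLE and upper quartile scaling, library totals only, all genes unfiltered, genes averaging 50 counts or more, a replicate block, limma with pseudocounts of 1 and 0.1 TPM on the log2 scale, and leaving out each library.

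The members, lists and tests were chosen with earlier results of these data known. All members were named, and of each other list the genes past the threshold, all downstream genes and the 3 nearest patterns per member (mean of at least 50 counts, log2(CPM + 0.5)). Promoter letters came from RefSeq (GRCm38.p6) for 8 members, with no coordinates of the deposited table used. Of the listed genes, Hand2, Dlx6, Barx1, Gsc, Tcf15 and Matn1 were not analysed here, and the values of 3 other listed genes are not reported here. Fits used DESeq2 1.42.0, edgeR 4.0.16 and limma 3.58.1 in R 4.3.3, and figures matplotlib 3.10.9 in Python 3.11.15.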

Additional observations from a re-analysis of the deposited data

How the results depend on the processing

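Of the 9 members, Lmx1b kept its call and direction in all 15 alternatives (-1.20 to -0.82), and Prrx1 in 13 of 15. The number of members past the threshold was 1 with limma on log2(TPM + 0.1), which lost Prrx1 and Tfap2b, and ran from 2 to 3 with a library left out. The related factors past it, 4 in the reported fit, ran from 2 (without control replicate 2) to 4 with a library left out and from 3 (replicate block) to 6 (DESeq2 and library totals only) in the other settings. The partners numbered 5 with DESeq2, in both limma fits and by library totals only, and ran from 1 (without Ptch1-ablated replicate 3) to 3 with a library left out. Prrx2 turned positive with limma at pseudocounts of 1 TPM (0.064) and 0.1 TPM (0.066) and by library totals only (0.12), and ran from -0.46 to 0.19 with a library left out. Lum did so in the same 3 settings (0.13, 0.13 and 0.097), and ran from -0.21 to 0.027. In these 3 settings the median of all genes shifted to 0.19, 0.22 and 0.17, and 72.8%, 72.8% and 72.6% of called genes were higher, against 55.2% in the reported fit. Relative to that median Prrx2 was at -0.13, -0.15 and -0.048. The setting by library totals only leaves out the TMM factors, which were lower in every control than in any ablated library. Leaving them out raises ablated values relative to controls. TPM, scaled to a fixed sum per library, holds no such factor either. How far this accounts for the limma fits, and why the factors differed between the groups, was not tested. Over all genes, 1813 passed with DESeq2 and 778 without control replicate 2, in place of 1178. Same-numbered samples of the groups did not deviate together (r across genes -0.03, -0.057 and 0.036). All genes tested entered these values, scarce ones included, so they cannot exclude a pairing. The reported fit used none. With the replicate block 942 genes passed, with 2 members (Tfap2b lost, -0.53), 3 related factors (Foxc2 lost) and 3 partners. Postn (-0.65) and Col9a1 (0.96) lost their calls under it, and Dcn gained one (-0.33). Meis2 has no value with a mean count of at least 50. At 0 to 143 counts Msx1, Meis2 and Sox9 are limited by depth and by their spread, with SE above 1.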
